A study of Mus musculus with 26 samples.

Results

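The 77 genes described here encode the proteins of the mouse mitochondrial ribosome, or proteins named as such, and they are 77 of the 55487 genes counted in sorted mouse lung macrophages. They were chosen by name and a floor on summed counts. All are protein-coding genes of the GRCm38 annotation with at least 260 counts summed over all 26 libraries. Their symbol is Mrpl (named for the large subunit, 48 genes) or Mrps (named for the small subunit, 29 genes) followed by a digit. A symbol does not always give the subunit, as told below for Mrps18a and Mrps36. Another gene, Mrpl53, met the name rule and had 0 counts in all 26 libraries. On that gene's exons, 88.0% of the bases are shared with another gene on the same strand. The labels name bone marrow-derived macrophages (BM), cells that are recruited into the inflamed lung, taken 1 (n = 5), 3 (n = 4) and 7 days (n = 3) after lipopolysaccharide (LPS), a bacterial cell-wall component, was placed in the trachea. They also name resident alveolar macrophages (AM), the phagocytes of the air spaces, taken without treatment (day 0, n = 3) and 1 (n = 4), 3 (n = 3) and 7 days (n = 4) after LPS. Every BM group and the AM groups of days 1, 3 and 7 had LPS, and day 0 exists for AM alone. The descriptions call the day 0 mice young, and for the other groups the labels give no age. Strain, sex, genotype and sorting gates were not given in the sources used here, and the sources do not say whether each replicate is a different animal. The p-values therefore cover the scatter among these libraries alone, part of which may be technical.

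Mitochondria keep a ribosome of their own, descended from a bacterial one, which translates the few messages encoded in mitochondrial DNA, all of them for subunits of the oxidative phosphorylation chain. Its RNAs are made inside the organelle, while every protein of it is encoded in the nucleus, made in the cytosol and imported. The small subunit holds the decoding centre and the large subunit joins the amino acids. In macrophages, oxidative phosphorylation is known to be used more by resting and tissue-repair states than by acutely activated ones.

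The starts of these genes are known for binding sites of NRF1, ETS factors such as GABP, and YY1, which act on many nuclear genes for mitochondria, and Myc is known to raise such genes through E-boxes. RefSeq promoter windows of GRCm38.p6, from 250 bases before to 50 after the start, were found for 68 of the 77 members (74 windows). The letters GCATGCGC (NRF1 core) on either strand stood in 10.8% of the member windows and in 2.71% of all 32851 windows. The letters CCGGAAG (ETS core) stood in 33.8% of the member windows and in 8.86% of all windows. For ATGGCGG (YY1 core) the shares were 16.2% of member windows and 4.05% of all windows, and for CACGTG (E-box) 9.46% and 7.15%. In the 13132 windows of other protein-coding genes that passed the filter on low counts, the shares were 4.84% for NRF1, 16.5% for ETS, 7.47% for YY1 and 9.53% for the E-box. A match describes letters and shows no binding. The 100 bases before the start are given for 4 members on which the results below turn, with matches in capitals. Mrpl32 (chr13:14613038-14613137, minus strand) holds 4 overlapping or neighbouring NRF1 matches, Mrpl52 (chr14:54426809-54426908, plus strand) 1 ETS match, Mrpl20 (chr4:155802778-155802877, plus strand) 1 E-box, and Mrps36 (chr13:100744660-100744759, minus strand) none of the 4 motifs.
Mrpl32: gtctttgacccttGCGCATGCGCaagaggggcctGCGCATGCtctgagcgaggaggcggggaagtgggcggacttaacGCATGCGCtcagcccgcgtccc
Mrpl52: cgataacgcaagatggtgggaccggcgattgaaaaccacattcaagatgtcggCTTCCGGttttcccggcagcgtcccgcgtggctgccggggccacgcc
Mrpl20: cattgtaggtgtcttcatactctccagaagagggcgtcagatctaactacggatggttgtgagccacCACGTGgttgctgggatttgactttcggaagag
Mrps36: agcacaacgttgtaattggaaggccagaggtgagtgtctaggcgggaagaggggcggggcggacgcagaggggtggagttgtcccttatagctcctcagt

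The libraries held 9176202 to 80816742 counts. The AM day 0 libraries held 35780951 or more, and every other library at most 27513205. Comparisons with day 0 are therefore also comparisons of depth. Levels are in CPM, counts scaled to a common library size with TMM factors. Sums of marker, histone and Y-linked genes are scaled by library size alone. In the BM libraries, AM marker genes together reached at most 2044 CPM at day 1, 4496 CPM at day 3 and 16164 CPM at day 7, against at least 20107 CPM in every AM library. The BM day 7 libraries were uneven in these markers, with 2847 to 16164 CPM and a median of 15189 CPM. Monocyte and monocyte-derived macrophage markers summed to at least 5759 CPM in every BM library, against at most 4185 CPM in AM of days 0, 1 and 7. In AM day 3 they had 5417 to 13214 CPM, which overlaps the BM day 1 range of 5759 to 7237 CPM. The libraries BM_day1.3 and BM_day3.1 stood apart. They had counts for 9684 and 9126 genes, against at least 11308 in every other library, and their median correlations with their own groups were 0.830 and 0.734. In BM_day3.1, fibroblast and endothelial markers summed to 29404 CPM, against at most 543 in all libraries outside BM day 3. The members followed this. BM_day1.3 had 0 counts for 36 members and BM_day3.1 for 29, of which 18 were at 0 in both, while no other library had more than 4. These are 46.8% and 37.7% of the members, beside 45.3% and 48.6% of all tested genes in the same libraries. Results that rest on these libraries are given with and without them.

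**Figure D1:**
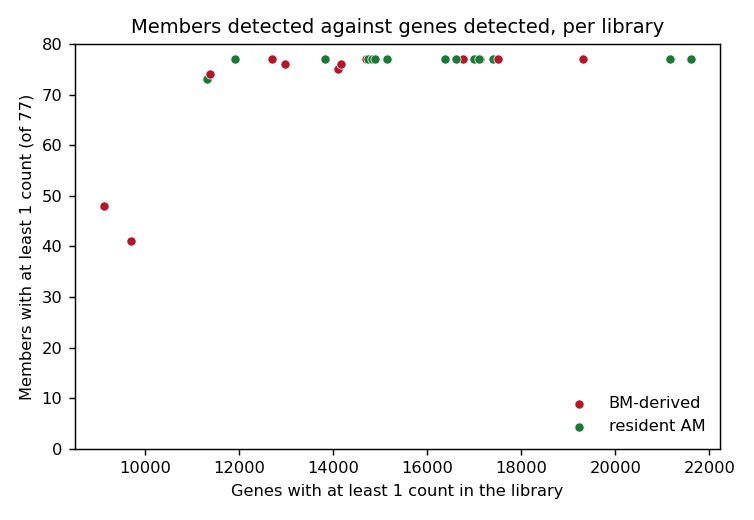
Members with at least 1 count (of 77, vertical axis) against the number of genes with at least 1 count (horizontal axis), 1 point per library, red for BM and green for AM. BM_day3.1 with 48 members and BM_day1.3 with 41 lie at the lower left, and every other library has at least 73.

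By group mean, mitochondrial ribosomal protein messages were lowest in BM macrophages 1 day after LPS and highest in resident AM on the same day. The summed level of the 77 members was 1179 ± 230 CPM in BM at day 1 (SD, n = 5), 2021 ± 74.6 at day 3 (n = 4) and 1856 ± 143 at day 7 (n = 3). In AM it was 1947 ± 332 CPM at day 0 (n = 3), 2821 ± 593 at day 1 (n = 4), 2556 ± 129 at day 3 (n = 3) and 2264 ± 24.8 at day 7 (n = 4). The BM level was thus 0.418 of the AM level at day 1, 0.791 at day 3 and 0.820 at day 7, and at none of the 3 days did the libraries of BM and AM overlap. Without BM_day1.3 and BM_day3.1 these ratios were 0.450, 0.785 and 0.820. In these bulk samples, fewer cells of a type and less RNA per cell cannot be told apart. Within BM, days 3 and 7 lay above day 1 with no overlap of libraries. Within AM, day 3 lay above day 0 with no overlap, and days 1 and 7 overlapped day 0. AM day 1 also overlapped AM days 3 and 7. Its library AM_day1.3, with 2146 CPM, lay below every library of AM day 3 (at least 2415 CPM) and AM day 7 (at least 2244 CPM).

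**Figure D2:**
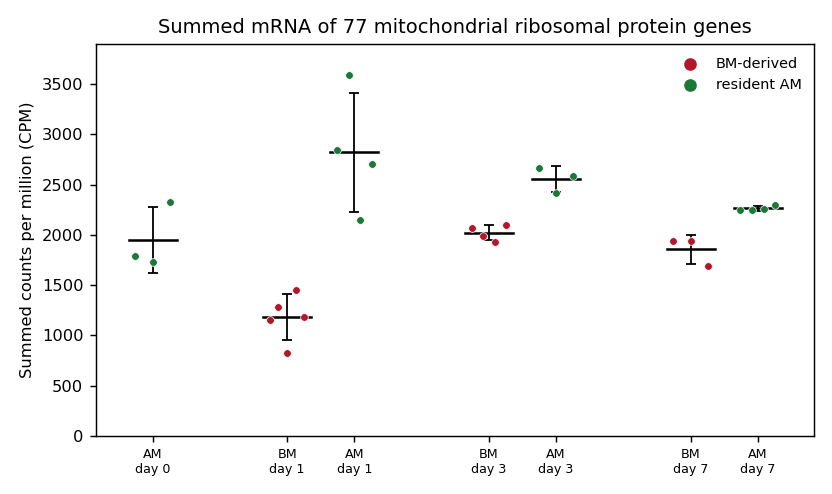
Summed CPM of the 77 members (vertical axis) in each library, by cell type and day (horizontal axis); points are libraries, bars the group mean and SD, red BM and green AM. BM libraries at day 1 lie between 824 and 1451 CPM, and AM libraries at day 1 between 2146 and 3588 CPM.

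Mrpl and Mrps genes both took part. By symbol, Mrps genes held 31.3 to 38.4% of the members' summed CPM in the BM day 1 libraries. In AM day 1 they held 28.8 to 32.0%. In BM day 7 they held 33.4 to 34.8%, against 34.6 to 36.5% in AM day 7. The median member stood at 12.3 ± 4.40 CPM in BM day 1 (SD over 5 libraries) and at 34.1 ± 6.57 CPM in AM day 1 (SD over 4).

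The members differed widely among themselves in level per length of transcript. By the mean of the 7 groups, Mrpl52, a large subunit protein with no bacterial counterpart, was the most abundant with 126 CPM per kb. Mrpl20, a large subunit protein kept from bacteria, had 87.6 CPM per kb and Mrps21, a small subunit protein also kept from bacteria, 87.5 CPM per kb. Mrpl33 followed with 77.8 CPM per kb. These ranks depend on the length used: with all annotated exons as length, Mrps21 ranks 1, Mrpl52 2, Mrpl20 8 and Mrpl33 61. At the other end Mrpl47 had 3.39 CPM per kb and the small subunit gene Mrps35 4.85 CPM per kb. Mrpl52 led in every group except AM day 0, where Mrps21 led with 89.4 CPM per kb. The highest member level was between 32.6 and 66.2 times the lowest in the 7 groups, and the widest ratio was in BM day 1.

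At day 1 the BM macrophages had fitted values below those of AM for 77 of 77 members, with a median log2 fold change of -1.31 against 0.06 over all 17143 genes tested. Of these, 19 members fell and 0 rose at an adjusted p under 0.05 (edgeR quasi-likelihood F test, Benjamini-Hochberg adjustment over all tested genes), where 13.8% of all genes were called lower and 29.0% were called in either direction. By symbol, the fall was called for 13 of 48 Mrpl genes and 6 of 29 Mrps genes. By separation of libraries, 34 of 77 members had every BM day 1 value below every AM day 1 value, against 12.6% of all genes. The other 58 members did not pass the test.

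**Figure D3:**
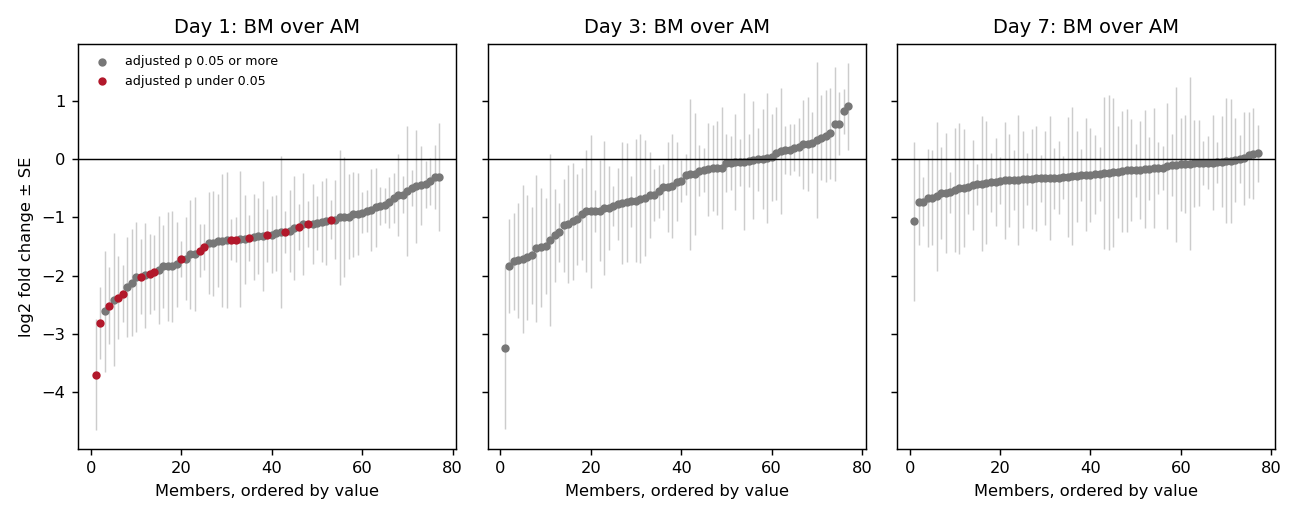
Log2 fold change of BM over AM (vertical axis) for each of the 77 members, ordered by value within each day (horizontal axis), at days 1, 3 and 7; lines are SE, and red marks an adjusted p under 0.05. All 77 points lie below 0 at day 1, 57 at day 3 and 72 at day 7, and red points appear at day 1 alone.

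Mrps36 (chromosome 13, 100735955 to 100744659, GRCm38) had the largest fall. It was named as a small subunit protein and is now known as a part of the 2-oxoglutarate dehydrogenase complex, which links that enzyme's components. Its values were 5.40, 0.861, 0, 2.20 and 2.40 CPM in BM day 1, against 26.7, 44.7, 0 and 41.3 CPM in AM day 1 (log2 fold change -3.69 ± 0.96 SE, edgeR adjusted p = 0.00508). The groups overlap only through AM_day1.3, which had no counts for Mrps36, while the other 3 AM libraries were at least 26.7 CPM.

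Mrpl20 (chromosome 4, 155802878 to 155809975) had 11.7, 12.3, 0, 12.5 and 15.4 CPM in BM day 1, against 81.8, 107, 44.8 and 59.1 CPM in AM day 1 (-2.81 ± 0.62, adjusted p = 0.00111). The groups did not overlap, and the AM values ran over more than the whole BM range. Mrpl42 (chromosome 10, 95480805 to 95501940), a large subunit protein particular to mitochondria, had 12.7, 6.84, 0, 11.0 and 13.7 CPM in BM day 1, against 56.1, 50.5, 58.0 and 37.0 CPM in AM day 1 (-2.51 ± 0.66, adjusted p = 0.00594). Here too no library of one group reached the other. Mrpl40, likewise found in mitochondrial ribosomes and not in bacterial ones, had 6.92, 7.75, 6.92, 17.6 and 3.4 CPM in BM day 1, against 43.7, 67.0, 18.5 and 39.8 CPM in AM day 1 (-2.31 ± 0.49, adjusted p = 0.000755). Its highest BM value lay just under its lowest AM value, which came from AM_day1.3.

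Mrpl32, whose RefSeq promoter window carries the 4 NRF1 matches shown above, is a large subunit protein that a mitochondrial protease trims before assembly. It had 8.56, 7.32, 15.7, 5.43 and 7.53 CPM in BM day 1, against 57.0, 63.0, 26.2 and 38.9 CPM in AM day 1 (-2.38 ± 0.71, adjusted p = 0.0145), with no overlap. Among the 19 members called lower, 16 had a promoter window. An NRF1 match stood in 1 of these 16, an ETS match in 6, a YY1 match in 1 and an E-box in 1. Mrpl12 (chromosome 11, 120484613 to 120489065) forms the stalk that recruits translation factors and also binds the mitochondrial RNA polymerase. Its values were 24.1, 25.5, 0, 39.7 and 19.0 CPM in BM day 1, against 115, 90.0, 56.9 and 71.3 CPM in AM day 1 (-1.94 ± 0.65, adjusted p = 0.0276). Mrpl10, the base on which that stalk is mounted, did not pass the test, with 27.1, 18.2, 13.5, 39.5 and 23.7 CPM in BM day 1 and 33.1, 39.1, 28.7 and 19.9 CPM in AM day 1 (-0.31 ± 0.55, adjusted p = 0.727). The 2 partners of 1 structure thus had a separated and an overlapping pair of groups, and whether their fold changes differ was not tested.

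In the small subunit, Mrps17, which binds ribosomal RNA in bacteria, had 26.1, 16.6, 0, 17.7 and 6.80 CPM in BM day 1, against 57.4, 68.6, 46.2 and 44.7 CPM in AM day 1 (-2.01 ± 0.64, adjusted p = 0.0217). Mrps33 had 10.3, 8.29, 0, 11.0 and 3.06 CPM in BM day 1, against 28.0, 23.9, 27.6 and 23.2 CPM in AM day 1 (-1.97 ± 0.68, adjusted p = 0.0319). Both were separated between the groups. Mrps21 (chromosome 3, 95862634 to 95871519) had 7.64, 16.6, 15.6, 22.5 and 12.3 CPM in BM day 1, against 47.2, 52.9, 19.0 and 36.4 CPM in AM day 1 (-1.38 ± 0.35, adjusted p = 0.00448), and overlapped through AM_day1.3. Mrps12, part of the decoding centre, had 8.56, 8.51, 3.85, 11.9 and 7.13 CPM in BM day 1, against 34.2, 37.6, 15.9 and 23.8 CPM in AM day 1. Although these did not overlap, its adjusted p was 0.0634 (-1.80 ± 0.73).

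The other members called lower at day 1 were Mrpl51, Mrpl13, Mrps5, Mrpl18, Mrpl30, Mrpl21, Mrpl15, Mrpl54, Mrps24 and Mrpl52, with log2 fold changes from -1.71 to -1.04. Mrps24 shares 15.4% of its exon bases with Urgcp on the same strand, and the settings of the counting were not given in the sources used here. The 3 Mrps18 paralogs, of which Mrps18a sits in the large subunit and the others in the small one, were not called. Mrps18b had a fold change of -0.83 ± 0.68 (adjusted p = 0.393) and Mrps18c one of -1.44 ± 0.87 (adjusted p = 0.220). Mrpl58, a peptidyl-tRNA hydrolase that frees stalled ribosomes and is built into the large subunit, stood at -0.74 ± 0.43 (adjusted p = 0.197).

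**Figure D4:**
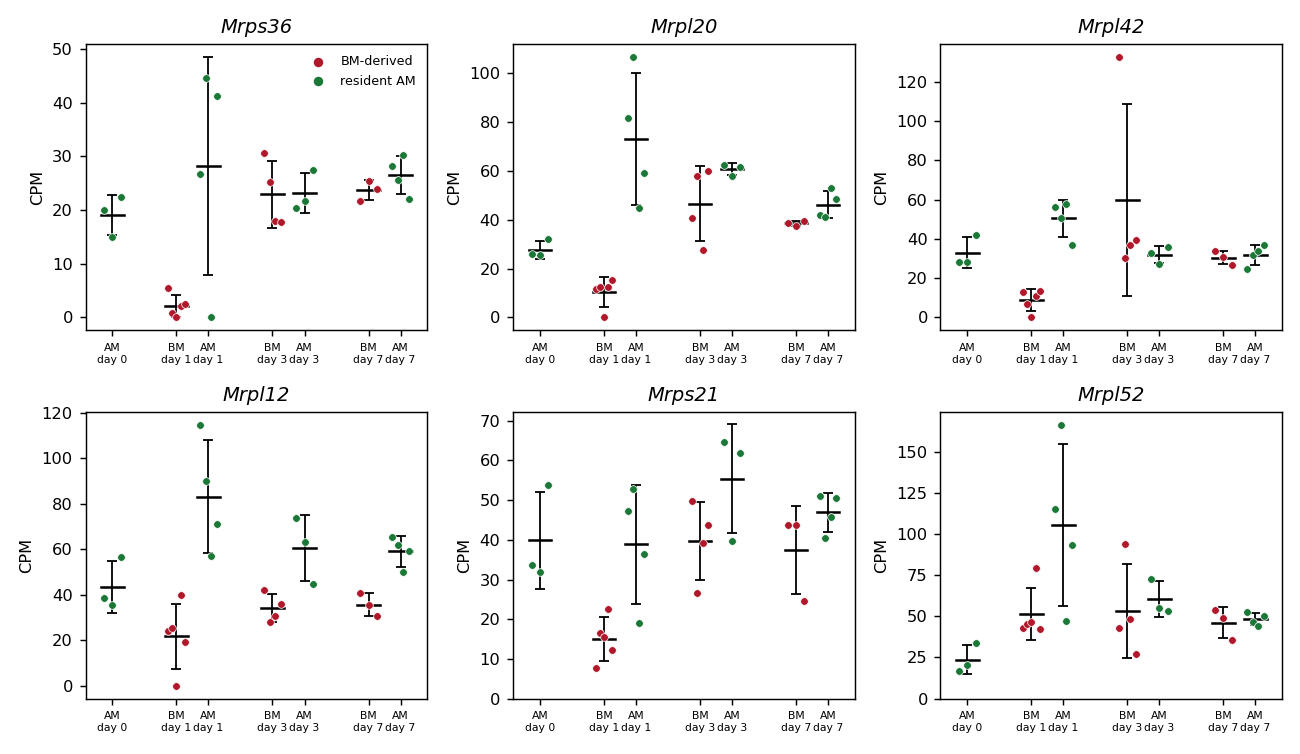
CPM (vertical axes) of 6 members in each library, by cell type and day (horizontal axes); points are libraries, bars the group mean and SD, red BM and green AM. BM day 1 lies lowest for Mrps36, Mrpl20, Mrpl42, Mrpl12 and Mrps21, while Mrpl52 is lowest in AM day 0; 1 point at 133 CPM stretches the BM day 3 bar of Mrpl42.

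The number of calls at day 1 depended on which libraries entered the fit. Leaving out BM_day1.3 and BM_day3.1 gave 53 lower and 0 higher, all 19 among them, where 40.4% of all genes were called in either direction, with a median of -1.11. Added to the 19 were then, for example, Mrpl44, a relative of ribonuclease III (-1.98 ± 0.35, adjusted p = 5.43e-05), and Mrpl41 (-2.30 ± 0.61, adjusted p = 0.00439), both picked here after their values were seen. DESeq2 gave 30 lower (33.6% of all genes in either direction), no filter on low counts 10, the BM and AM day 1 libraries fitted alone 8 (25.8% of all genes), leaving out BM_day3.1 alone 42 (37.4%) and leaving out AM_day1.2 alone 11 (21.9%), with 0 higher in each. In the fit to the day 1 libraries alone, 13 of the 19 lost their call. Among these were Mrps36, Mrpl20, Mrpl42, Mrpl12, Mrps17, Mrps33 and Mrps21. The library names of BM day 1 carry a prefix that no other group has, so cell type and that prefix cannot be told apart at day 1. The summed RNA of 4 Y-linked genes was 7.20 to 41.3 CPM in BM day 1, against 182 to 227 CPM in AM day 1, and with it as a covariate 17 members fell. For that fit and the one with no filter, the share of all genes called is not given here. Their counts therefore do not by themselves describe the members. Neutrophil markers summed to 696 to 1970 CPM in BM day 1, against 1001 to 2139 CPM in AM day 1. Histone genes, whose RNAs mostly lack a poly(A) tail, together had 734 to 2022 CPM in the libraries of BM day 1, against at most 324 CPM in every other library. The part of histone and neutrophil RNA in the result was not tested.

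Length of transcript moved with this comparison. Among other protein-coding genes, the median log2 fold change of BM over AM at day 1 was -1.0 for median transcripts under 1000 bases (1090 genes), -0.52 from 1000 to under 2000 bases (3254 genes) and 0.24 for 2000 bases or more (8748 genes). The members had medians of -1.35 (29 members), -1.29 (28 members) and -1.26 (20 members) in these bands. The members' medians thus hardly changed with length, and the difference from other genes of like length was smallest for the shortest transcripts. From short to long, 11 of 29, 5 of 28 and 3 of 20 members were called lower, beside 33.7%, 21.3% and 10.8% of the other genes. Within a band, the members were thus called about as often as other genes of like length. The part of length in the result was not tested.

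**Figure D5:**
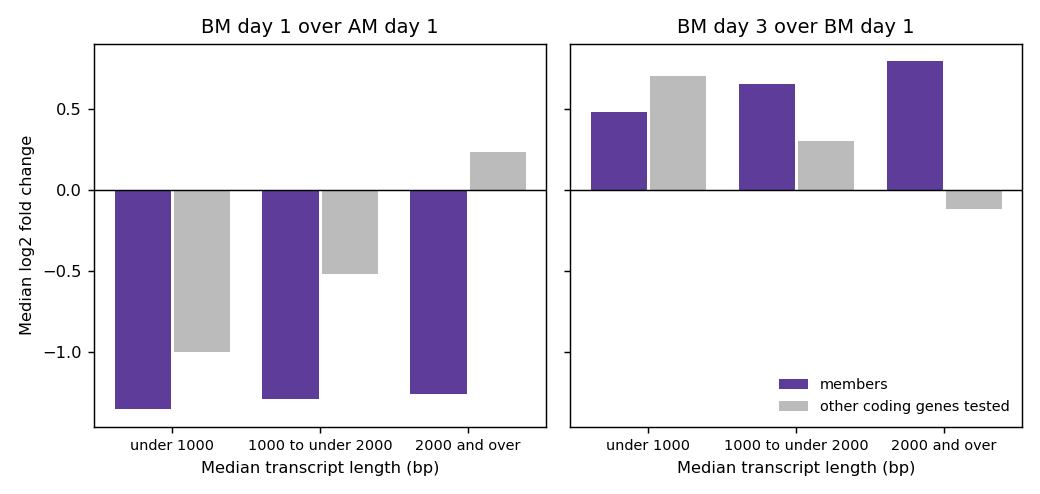
Median log2 fold change (vertical axes) of members (purple) and other protein-coding genes tested (grey) by median transcript length (horizontal axes), for BM day 1 over AM day 1 at left and BM day 3 over BM day 1 at right. At left the members lie between -1.35 and -1.26 in all 3 bands, while other genes run from -1.0 to 0.24.

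Genes that work beside the mitochondrial ribosome were mostly below their AM level in BM day 1 as well, by median. Of 13 tested mitochondrial translation factors 3 fell and 0 rose (median -0.98). Tufm, the elongation factor that brings aminoacyl-tRNA to the ribosome, had 31.1, 31.9, 11.8, 37.5 and 27.3 CPM in BM day 1, against 91.4, 118, 75.5 and 106 CPM in AM day 1 (-1.81 ± 0.28, edgeR adjusted p = 1.47e-05). The groups were far apart. Mtif2, an initiation factor (-1.26 ± 0.35, adjusted p = 0.00847), and Gfm1, an elongation factor that moves the ribosome on (-0.98 ± 0.30, adjusted p = 0.0162), also fell. Of 6 mitoribosomal proteins under other symbols 1 fell and 0 rose (median -1.01). This was Aurkaip1 (-1.47 ± 0.22, adjusted p = 1.30e-05), while Dap3, a GTP-binding small subunit protein, had -0.55 ± 0.29 (adjusted p = 0.153).

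Of 26 genes for assembly and ribosomal RNA modification 1 was called lower and 0 higher (median -0.89). This was Rpusd3, a pseudouridine synthase with 0 counts in all 5 BM day 1 libraries and 0, 3.68, 0 and 2.08 CPM in AM day 1, so its groups overlap at 0. Of 20 mitochondrial aminoacyl-tRNA synthetases 2 fell and 0 rose (median -0.46), Lars2 by 1.81 and Iars2 by 0.81 on the log2 scale (adjusted p = 0.0462 and 0.0307). Of 17 genes for mitochondrial transcription and RNA handling 3 were called lower and 0 higher (median -0.64). Trmt10c, a subunit of mitochondrial RNase P, fell by 2.75 (SE 0.72, adjusted p = 0.00551) and Elac2, which cuts the other end of the tRNAs, by 1.02 (SE 0.35, adjusted p = 0.0329). Slirp, the third, was under 8 CPM in all libraries of both groups. Tfam, which packs mitochondrial DNA and starts its transcription, did not pass the test (-0.65 ± 0.40, adjusted p = 0.232).

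Among 8 tested regulators of mitochondrial biogenesis 1 fell and 0 rose (median -0.07). Myc, a transcription factor of growth, had 9.68, 19.0, 6.64, 19.5 and 18.1 CPM in BM day 1, against 31.7, 42.9, 50.9 and 44.6 CPM in AM day 1 (-1.54 ± 0.38, adjusted p = 0.00309), with no overlap. Among 18 cell cycle genes 4 rose and 1 fell (median 0.53), Top2a by 2.57 (SE 0.50, adjusted p = 0.000339) and Tk1 by 2.53 (SE 0.54, adjusted p = 0.000794). The cell cycle genes called higher therefore went the other way from the members.

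At day 3, BM and AM macrophages differed less. In the edgeR test 0 of 77 members were called, where 3.98% of all genes were, and 7 members had an unadjusted p under 0.05. DESeq2 called 1 lower, where it called 10.7% of all genes. The BM day 3 libraries were split in Y-linked RNA, with 0.176 CPM in BM_day3.1 and 0.0495 CPM in BM_day3.2. BM_day3.3 had 176 CPM and BM_day3.4 171 CPM, and AM day 3 had 192 to 223 CPM. Counts that moved with this RNA as a covariate are given at the end. The members' median was -0.38 against -0.07 over all genes, and 57 of 77 were below 0. Every BM library lay below every AM library for 18 members, against 11.3% of all genes. Mrpl12 had 41.8, 27.9, 30.5 and 35.7 CPM in BM day 3, against 73.8, 63.0 and 44.7 CPM in AM day 3 (-0.83 ± 0.72, adjusted p = 0.614). It did not overlap, and without BM_day1.3 and BM_day3.1 it was called lower, with -0.96 ± 0.28 (adjusted p = 0.0414), as was Mrpl30 (-1.20 ± 0.36, adjusted p = 0.0450), and no further member was, where 6.13% of all genes were called. Mrps15 had 0.165, 27.0, 6.20 and 35.9 CPM in BM day 3, against 65.4, 45.7 and 73.2 CPM in AM day 3 (-1.82 ± 0.81, adjusted p = 0.187).

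At day 7 the BM values were nearest those of AM. In the edgeR test 0 of 77 members were called, where 1.77% of all genes were; 0 had an unadjusted p under 0.05, and DESeq2 called 0 (3.52% of all genes). The median was -0.27 against 0.03 over all genes, 72 of 77 members were below 0, and 27 had every BM library below every AM library, against 14.2% of all genes. Mrpl12 had 40.9, 35.3 and 30.6 CPM in BM day 7, against 65.6, 61.9, 49.8 and 59.1 CPM in AM day 7 (-0.73 ± 0.74, adjusted p = 1.00). Mrps15 had 51.0, 51.2 and 40.1 CPM in BM day 7, against 84.4, 73.3, 66.1 and 75.6 CPM in AM day 7 (-0.66 ± 0.81, adjusted p = 1.00). Neither gene overlapped between the groups.

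The count at day 7 depended on the libraries in the fit. In a fit to the 7 libraries of day 7 alone, 11 members fell and 0 rose, where 20.4% of all genes were called. They included Mrpl12 (-0.73 ± 0.14, adjusted p = 0.00345), Mrps15 (-0.66 ± 0.12, adjusted p = 0.00344), Mrps12 (-0.66 ± 0.21, adjusted p = 0.0438) and, with the largest change, Mrps6 (-1.06 ± 0.24, adjusted p = 0.0110), named after its values were seen. Mrps6 had 16.4, 16.0 and 8.14 CPM in BM day 7, against 31.1, 23.1, 26 and 33.1 CPM in AM day 7. It shares 19.9% of its exon bases with other genes on the same strand. Both day 7 groups come from libraries with the same name prefix and had Y-linked RNA of at most 4.02 CPM in sum.

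The change of BM against AM between days was tested as an interaction. From day 1 to day 3 the BM minus AM difference rose for 3 members and fell for 0, where 3.52% of all genes were called higher and 11.5% in either direction. These were Mrpl42 (3.42 ± 1.02, adjusted p = 0.0295), Mrpl40 (2.31 ± 0.74, adjusted p = 0.0410) and Mrpl3 (1.62 ± 0.51, adjusted p = 0.0374), a large subunit protein kept from bacteria. Mrpl3 had 81.3, 29.5, 44.8 and 52.5 CPM in BM day 3 and 26.4, 22.0 and 40.1 CPM in AM day 3, beside 18.4, 37.2, 42.0, 25.6 and 18 CPM in BM day 1 and 47.3, 36.2, 52.2 and 61.0 CPM in AM day 1. BM thus lay mostly above AM at day 3 and mostly below at day 1, with overlap at both days. The median member interaction was 0.92 against -0.24 over all genes. From day 1 to day 7, 0 members were called, where 7.54% of all genes were; 8 had an unadjusted p under 0.05, DESeq2 called 4 higher (13.4% of all genes in either direction), and the median was 1.11 against 0.01. Without BM_day1.3 and BM_day3.1 the edgeR counts were 13 higher at day 3 (16.5% of all genes called) and 9 higher at day 7 (15.1%), and in a fit to the 4 groups concerned alone they were 0 (3.15%) and 1 (11.0%). The day 3 count also fell to 0 without AM_day3.1 or without AM_day3.2.

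Within the BM macrophages, member messages were higher at day 3 than at day 1. Of 77 members 13 rose and 0 fell, where 10.6% of all genes were called higher and 25.9% in either direction, and the median was 0.70 against -0.05 over all genes. By symbol, the rise was called for 8 of 29 Mrps genes, Mrps36 and Mrps18a among them, and 5 of 48 Mrpl genes. Mrps36 had 30.6, 25.3, 17.9 and 17.8 CPM in BM day 3, against 5.40, 0.861, 0, 2.20 and 2.40 CPM in BM day 1 (3.39 ± 0.94, edgeR adjusted p = 0.0121). Mrpl20 had 40.5, 58.1, 27.5 and 60.0 CPM in BM day 3, against at most 15.4 CPM in BM day 1 (2.16 ± 0.60, adjusted p = 0.0124). Both were separated, Mrps36 by more than the range within BM day 1.

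Mrpl42 had 133, 30.3, 37.1 and 39.2 CPM in BM day 3, against at most 13.7 CPM in BM day 1 (2.76 ± 0.67, adjusted p = 0.00449). Mrps33 had 30.3, 25.7, 55.9 and 39.8 CPM in BM day 3, against at most 11.0 CPM in BM day 1 (2.53 ± 0.69, adjusted p = 0.0107). Mrps17 had 108, 36.0, 42.6 and 67.2 CPM in BM day 3, against at most 26.1 CPM in BM day 1 (2.24 ± 0.65, adjusted p = 0.0153). None of the 3 overlapped, and for Mrpl42 and Mrps17 the highest value came from BM_day3.1.

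Mrps11, a small subunit protein of the platform in bacteria, had 29.0, 12.7, 30.8 and 15.4 CPM in BM day 3, against 0.329, 5.71, 0, 2.27 and 10.7 CPM in BM day 1 (2.53 ± 0.87, adjusted p = 0.0360). Mrps21 had 49.8, 26.5, 39.3 and 43.7 CPM in BM day 3, against at most 22.5 CPM in BM day 1 (1.41 ± 0.35, adjusted p = 0.00542). Neither overlapped. The call of Mrps18a (1.47 ± 0.47, adjusted p = 0.0247) rested on values of 131, 22.2, 24 and 31.2 CPM in BM day 3 and 31.4, 16.4, 6.71, 16.8 and 22.5 CPM in BM day 1, of which the first is BM_day3.1. The other members called were Mrpl40, Mrps9, Mrpl21, Mrpl3 and Mrps23, with log2 fold changes from 1.66 to 0.83. In all, 12 members had every day 3 library above every day 1 library, against 5.50% of all genes. Without BM_day1.3 and BM_day3.1, 25 rose and 0 fell, 11 of the 13 among them, where 27.0% of all genes were called. A fit to both BM groups alone called 0 (8.87% of all genes) and one with no filter on low counts 7. The share of all genes called with no filter is not given here.

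In the same comparison Tufm rose by 0.80 (SE 0.27, adjusted p = 0.0334), Grsf1, which binds mitochondrial RNA, by 1.25 (SE 0.27, adjusted p = 0.00182) and Tfam by 1.13 (SE 0.40, adjusted p = 0.0408) on the log2 scale. Genes for mitochondrial transcription and RNA handling went both ways. Of the 17 tested, 2 were called higher and 2, not named here, were called lower (median 0.24). Myc had 25.9, 36.6, 50.1 and 15.1 CPM in BM day 3, against 9.68, 19.0, 6.64, 19.5 and 18.1 CPM in BM day 1 (1.13 ± 0.37, adjusted p = 0.0298), and overlapped through BM_day3.4. Pprc1 (-1.24 ± 0.40, adjusted p = 0.0270) and Esrra (-0.54 ± 0.18, adjusted p = 0.0300), regulators of mitochondrial genes, fell. The regulators therefore did not move one way. The name prefix of BM day 1 differs from that of BM days 3 and 7, so day and prefix cannot be told apart within BM, nor in the interactions, which also rest on BM day 1. Histone RNA was 46.6 to 113 CPM in BM day 3, against 734 to 2022 CPM in BM day 1. Monocyte and monocyte-derived macrophage markers had 15312 to 34326 CPM in BM day 3, against 5759 to 7237 CPM in BM day 1 (8 of 14 rose and 3 fell). The part of these in the rise was not tested. Y-linked RNA was 7.20 to 41.3 CPM in BM day 1. In BM day 3 it was 0.0495 and 0.176 CPM in some libraries and 171 and 176 CPM in the others. The day 3 interaction rests on the same BM libraries. Length again moved with the change: other protein-coding genes had medians of 0.71, 0.30 and -0.12 in the 3 length bands and members 0.48, 0.65 and 0.79.

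At day 7 the BM macrophages had 3 members higher than at day 1 and 0 lower, where 8.88% of all genes were called higher and 13.3% in either direction. Mrps36 had 21.6, 25.3 and 24 CPM in BM day 7 (3.44 ± 0.98, adjusted p = 0.0185 over BM day 1). Mrpl20 had 38.8, 37.4 and 39.3 CPM in BM day 7 (1.89 ± 0.63, adjusted p = 0.0472), a call that held in 9 of 37 other settings, with 1.52 to 2.29. Mrps21 had 43.7, 43.8 and 24.6 CPM in BM day 7 (1.32 ± 0.37, adjusted p = 0.0173). The call held in 34 of the 37 settings for Mrps36 and in 30 for Mrps21. All 3 lay above every BM day 1 library, as did 26 of 77 members, against 19.4% of all genes. Without BM_day1.3 and BM_day3.1, 14 rose (20.6% of all genes called), and a fit to both groups alone called 0 (14.7%). Single libraries of these groups moved the count too: it was 1 without BM_day1.1 (11.3% of all genes called), BM_day7.1 (7.8%) or BM_day7.2 (7.47%), 6 without BM_day1.3 (13.2%) and 8 without BM_day3.1 (19.2%). Between days 7 and 3 of BM, 0 members were called, where 3.98% of all genes were; 0 had an unadjusted p under 0.05, DESeq2 called 0 (8.73% of all genes), and the median was 0.02 against 0.21.

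In resident AM, most members were above their untreated level 1 day after LPS, by fitted values. The median log2 fold change was 0.51, against -0.20 over all genes, and 69 of 77 were above 0. The test called 1 member, Mrpl52, where 3.22% of all genes were called higher and 6.28% in either direction. Mrpl52 (chromosome 14, 54426909 to 54429756) had 115, 166, 47.4 and 93.3 CPM in AM day 1, against 16.8, 20.4 and 33.6 CPM in AM day 0 (2.16 ± 0.41, edgeR adjusted p = 0.000878). The groups did not overlap, and the call held in all 37 other settings tried, with 1.85 to 2.49. In all, 19 members had every AM day 1 library above every day 0 library, against 9.36% of all genes.

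Without BM_day1.3 and BM_day3.1, which belong to neither group but enter the shared estimate of spread, 9 members rose and 0 fell, where 14.0% of all genes were called. DESeq2 called 3 higher (2051 of the 17143 genes in either direction) and a fit to both AM groups alone 6 higher (13.7%), with 0 lower in each. In the fit without BM_day1.3 and BM_day3.1, those called included Mrpl20 with 81.8, 107, 44.8 and 59.1 CPM in AM day 1, against 25.8, 25.3 and 32.0 CPM in AM day 0 (1.39 ± 0.27, adjusted p = 0.000738), and Mrpl12 with 115, 90.0, 56.9 and 71.3 CPM, against 38.4, 35.3 and 56.6 CPM in AM day 0 (0.93 ± 0.27, adjusted p = 0.0185). Mrps28, named after its values were seen, had 28.1, 26.4, 27.2 and 34.8 CPM in AM day 1, against 7.70, 6.87 and 10.4 CPM in AM day 0 (1.80 ± 0.45, adjusted p = 0.00656). None of the 3 overlapped. The library names of AM day 0 also carry a prefix of their own, so LPS and that prefix cannot be told apart. Neutrophil markers summed to 1001 to 2139 CPM in AM day 1, against at most 95.9 CPM in AM day 0, with Camp and Ly6g at 0 in all AM day 0 libraries and Camp at 0 in all AM day 1 libraries, and their part in the result was not tested. Monocyte and monocyte-derived macrophage markers had 1725 to 3451 CPM in AM day 1, against 1256 to 2033 CPM in AM day 0, with 8 of 14 higher and 1 lower (median 2.50), and their part was likewise not tested. None of the lists of translation factors, assembly factors, synthetases, mitochondrial RNA genes and regulators had a gene called. Of 18 cell cycle genes 3 fell and 0 rose (median -2.25), among them Top2a by 2.66 (SE 0.54, adjusted p = 0.00182).

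At AM day 3 the members' median over day 0 was 0.39, against -0.07 over all genes. In the edgeR test 0 were called, where 2.51% of all genes were; 2 had an unadjusted p under 0.05, and DESeq2 called 1 higher (5.47% of all genes). Monocyte and monocyte-derived macrophage markers had 5417 to 13214 CPM in AM day 3, against 1256 to 2033 CPM in AM day 0 (9 of 14 rose, 0 fell, median 4.73). Neutrophil markers had 589 to 1166 CPM in AM day 3, against at most 95.9 CPM in AM day 0. The part of these markers in the result was not tested. Every day 3 library lay above every day 0 library for 30 members and below for 1, against 14.0% and 19.7% of all genes. A fit to these 2 groups alone called 15 higher and 0 lower, where 15.9% of all genes were called, led by Mrpl52 with 72.8, 55.1 and 53.1 CPM (1.36 ± 0.27, adjusted p = 0.00973) and Mrpl20 with 62.4, 58.0 and 61.7 CPM in AM day 3 (1.14 ± 0.17, adjusted p = 0.00251). Mrps18c had 26.1, 21.4 and 29.5 CPM in AM day 3, against 9.05, 10.6 and 16.3 CPM in AM day 0 (1.10 ± 0.28, adjusted p = 0.0264 in that fit). It shares 23.2% of its exon bases with another gene on the same strand.

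At AM day 7 the median over day 0 was 0.23, against -0.04 over all genes. Y-linked RNA summed to 148 to 239 CPM in AM day 0, against at most 4.02 CPM in AM day 7. The AM day 0 libraries held at least 35780951 counts, and those of AM day 7 at most 27513205. The part of these differences in the fit to the 2 groups alone was not tested. In the edgeR test 0 members were called, where 0.677% of all genes were; 1 had an unadjusted p under 0.05, and DESeq2 called 0 (1.99% of all genes). Mrpl52 had 52.4, 46.3, 44.2 and 50.1 CPM in AM day 7, still above all 3 day 0 libraries, and Mrpl20 had 42.0, 41.1, 53.0 and 48.5 CPM, likewise. Monocyte and monocyte-derived macrophage markers had 2934 to 4185 CPM in AM day 7, against 1256 to 2033 CPM in AM day 0 (5 of 14 rose, 2 fell), and their part was not tested. In the fit to the 2 groups alone 10 were called higher and 0 lower, where 16.9% of all genes were called, with Mrpl52 at 1.04 ± 0.21 (adjusted p = 0.00688) and Mrpl20 at 0.75 ± 0.15 (adjusted p = 0.00599).

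From AM day 1 on, the members' fitted values were mostly lower at the later day. The median of day 7 over day 1 was -0.37, against 0.09 over all genes. In the edgeR test 0 were called, where 4.93% of all genes were; 2 had an unadjusted p under 0.05, DESeq2 called 2 lower (10.1% of all genes), and a fit to both groups alone called 7 lower (17.1%). For day 3 over day 1, 0 were called, where 0.834% of all genes were, with 1 member at an unadjusted p under 0.05, 0 by DESeq2 (4.92% of all genes) and a median of -0.13. For day 7 over day 3, 0 were called, where 1.59% of all genes were, with 0 members at an unadjusted p under 0.05, 0 by DESeq2 (3.73% of all genes) and a median of -0.19, and a fit to both groups alone called 5 lower (16.6%). All 3 comparisons are within libraries of the same name prefix. Y-linked RNA summed to at most 4.02 CPM in AM day 7, against 182 to 227 CPM at day 1 and 192 to 223 CPM at day 3, so the comparisons with day 7 also differ in it. The monocyte and monocyte-derived macrophage markers fell for 9 of 14 genes at day 7 against day 3 and rose for 7 of 14 at day 3 against day 1.

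The members did not all share one pattern. Over the 7 group means, the correlation of a member with the mean of all members was lowest for Mrpl10 (r = 0.344), Mrps28 (r = 0.364) and Mrpl52 (r = 0.407); these are descriptions over 7 points that share the same libraries. Mrpl10 had 33.1, 39.1, 28.7 and 19.9 CPM in AM day 1, against 33.2, 33.0 and 31.7 CPM in AM day 0, and these overlap. Outside the members, the genes with the most similar pattern over the 7 group means were Fahd1 (r = 0.9954), Gatc (0.9924), Mpc1-ps (0.9905), Igsf8 (0.9904) and Ndufa5 (0.9902).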

How the data were processed

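The authors deposited raw counts of reads per Ensembl gene, 1 column per library, for 26 libraries. The submitters' processing notes list the build GRCm38 and the tools featureCounts 2.0.0, HISAT2 2.1.0, Trimmomatic 0.39 and FastQC 0.11.9. Settings, annotation release and strand setting of the counting are not given in the sources used here. Per the labels' protocols, the libraries were stranded and poly(A)-selected, so transcripts without a poly(A) tail are measured poorly. Symbols for 55227 of 55487 IDs came from GENCODE M21. The members and gene lists were chosen with earlier results of these data known.

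The counts were fitted in edgeR 4.0.16 (R 4.3.3): TMM scaling, filterByExpr with a minimum count of 10, 1 coefficient per group over all 26 libraries, and the quasi-likelihood F test with robust estimation. The Benjamini-Hochberg adjustment ran over the 17143 genes tested, which included all 77 members, and a gene was called at an adjusted p under 0.05. SE is the log2 fold change divided by the root of F. CPM are TMM-scaled, except for the sums of marker, histone and Y-linked genes, which use library size alone. CPM per kb use the median length of coding transcripts. Values after ± are SD for levels and SE for fold changes. The procedure was tested on simulated data.

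Members named are, in each comparison, the called members of largest change, at most 8, with 5 CPM or more in the higher group. Also named are the 3 most and the least abundant per length of the Mrpl and of the Mrps genes. Members called in an interaction are named, and always Mrpl12, Mrpl10, Mrps12, Mrps18a, Mrps18b, Mrps18c, Mrpl58 and Mrps36. From each list up to 4 called genes with the largest change are named, though not in every comparison, and always Tufm, Tfam, Myc and Dap3. Processed pseudogenes that share a member's name, 5 in all with 2109 counts, were not added to the members, and reads shared with such copies could be split between them. The 37 mitochondrial genes had 0 counts in all libraries, so the messages that these ribosomes translate could not be set beside them. Alternatives were other scalings and filters, DESeq2 1.42.0, compared groups alone, a replicate block, a Y-linked covariate, the library number range, and leaving out libraries.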

Additional observations from a re-analysis of the deposited data

Results flagged for a closer look

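Single libraries stood apart from their own group in 9 of 92 gene and group pairs tested with Dixon's rule, a rule by which chance alone marks about 1 in 20 groups. It was applied to the members named by the rule above and to the summed level. The groups with n = 3 (AM day 0, AM day 3 and BM day 7) were not tested. In BM_day1.3, Mrpl20 had 0 CPM, where the other BM day 1 libraries had 11.7 to 15.4 CPM, and Mrpl58 had 43.8 CPM, where the others had at most 16.6 CPM. In BM_day3.1, Mrpl42 had 133 CPM, where the others of its group had 30.3 to 39.2 CPM, and Mrps18a had 131 CPM, where the others had 22.2 to 31.2 CPM. In AM_day1.3, Mrps15 had 10.6 CPM, where the others had 56.7 to 60.9 CPM, and Mrps18c had 1.87 CPM, where the others had 20.3 to 22.9 CPM. These 3 libraries hold 6 of the 9 values and are among those with the fewest genes detected. The remaining values were Mrpl33 in BM_day3.2 with 45.0 CPM (others 18.2 to 21.3 CPM), Mrpl52 in BM_day1.4 with 79.5 CPM (others 42.2 to 46.4 CPM) and Mrps17 in AM_day7.4 with 44.6 CPM (others 39.5 to 40.2 CPM).

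The difference between BM and AM changed between days 1 and 3 for 3 of 77 members by a test of the difference itself (edgeR interaction). These are 3.9% of the members, near the 3.52% of all genes called higher, and 11.5% of all genes were called in either direction. The difference rose by 1.62 for Mrpl3, by 2.31 for Mrpl40 and by 3.42 for Mrpl42 on the log2 scale. Of 37 other settings, the call held in 23 for Mrpl3, in 12 for Mrpl40 and in 31 for Mrpl42.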

How the results depend on the processing

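No called member changed direction in any of the settings tried. Counts of members called moved as follows (day numbers, later or BM first). The share of all genes called moved as well. For BM against AM at day 1 it was 29.0% in the main fit. It was 33.6% with DESeq2, 25.8% with the compared groups alone and 40.4% without BM_day1.3 and BM_day3.1. The counts below therefore do not by themselves describe the members. DESeq2 called 30 for BM against AM at day 1, 1 at day 3, 3 for AM day 1 over 0, 1 for AM day 3 over 0, 2 for AM day 7 over 1, 20 for BM day 3 over 1, and 8 and 4 for the interactions of day 3 and day 7 with day 1. With no filter the counts were 10 (BM against AM, day 1), 7 (BM day 3 over 1), 1 (BM day 7 over 1) and 1 (interaction, day 3), and with a stricter filter 1 (AM day 7 over 1) and 1 (interaction, day 7). The compared groups alone gave 8 and 11 for BM against AM at days 1 and 7, then 6, 15 and 10 for AM days 1, 3 and 7 over 0, 5 and 7 for AM day 7 over 3 and over 1, 0 for BM days 3 and 7 over 1, and 0 and 1 for the interactions. A Y-linked covariate gave 1 (BM against AM, day 3), 1 (BM day 7 over 1) and 1 (interaction, day 7), and the library number range 1 (BM day 7 over 1). Without BM_day1.3 and BM_day3.1, BM against AM gave 53 and 2 at days 1 and 3, AM over day 0 gave 9 and 2 at days 1 and 3, AM day 7 over 1 gave 3, BM over day 1 gave 25 and 14, and the interactions 13 and 9. Without AM_day1.3 as well, chosen after seeing the data, these were 60, 6, 14, 3, 6, 27, 18, 17 and 17. Scaling by library size alone moved the summed level to 2237 CPM in AM day 7 and to 2101 CPM in BM day 3.

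Leaving out each library in turn gave 11 to 42 for BM against AM at day 1, 0 to 2 at day 3 and 0 to 0 at day 7. The share of all genes called moved too: at day 1 it was 21.9% at the count of 11 and 37.4% at 42. At day 3 it was 4.13% at the count of 2. The AM counts were 1 to 2, 0 to 1 and 0 to 0 for days 1, 3 and 7 over 0. They were 0 to 0 for AM day 3 over 1 and day 7 over 3, and 0 to 1 for AM day 7 over 1. All genes called were 6.36 to 10.1% at the count of 2 for day 1 and 3.74% at the count of 1 for day 3. For BM the counts were 9 to 18 (day 3 over 1), 1 to 8 (day 7 over 1) and 0 to 1 (day 7 over 3). For the interactions they were 0 to 6 (day 3) and 0 to 3 (day 7). All genes called were 19.2% at the count of 8 in BM day 7 over 1. In the day 3 interaction they were 6.33 and 7.01% at the count of 0 and 13.4% at 6. Of the 19 members called at day 1, Mrpl30, Mrpl40 and Mrpl51 were called in all 37 settings.

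Over 69 pairs with the same replicate number in their titles, deviations from group means correlated between -0.113 and 0.0928. The count columns carry other numbers for AM_day3.3 and for all libraries of BM days 1 and 7. Pairing by the column numbers was not tested. The replicate block also used the title numbers. With the replicate block 12 members fell in BM against AM at day 1, 6 rose in BM day 3 over 1, 0 in BM day 7 over 1, and 0 in the interaction of day 3. The share of all genes called with the block is not given here, so these counts do not by themselves describe the members. The causes of these shifts were not tested. Genes under about 5 CPM are limited by depth in the smaller libraries.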
